A study of Mus musculus with 4 samples.

Results

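The miR-30 family is a group of related microRNAs, short RNAs that lower the output of the messenger RNAs they pair with. Its rows were taken from the tables by name: every row called mmu-miR-30a, b, c, d or e, once the mark of the hairpin arm and of the gene copy was set aside. This gave 10 of the 590 miRNA names listed in any library. Of these, 5 are guides, the arm that is usually kept (mmu-miR-30a, mmu-miR-30b, mmu-miR-30c, mmu-miR-30d and mmu-miR-30e). The other 5 are stars, the opposite arm of the same hairpin (mmu-miR-30a*, mmu-miR-30b*, mmu-miR-30c-1*, mmu-miR-30c-2* and mmu-miR-30e*). The opposite arm of the miR-30d hairpin was not analysed here. All 10 rows were listed in each of the 4 libraries, and all 10 passed the filter on low counts.

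The libraries are small RNA from cultured mouse synovial fibroblasts, the connective tissue cells of the joint lining. The cells came from the hind joints of 8-week-old mice on a mixed CBA/J and C57BL/6/J background and were used at passage 4. One group is TghuTNF, mice that carry a human TNF transgene, with 2 biological replicates. The other is WT, their littermates without it, also with 2 biological replicates. TNF is an inflammatory cytokine, and the series uses this mouse as a model of the synovial fibroblasts of rheumatoid arthritis. The sources used here name neither the promoter of the transgene nor the number of mice behind a replicate.

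A miRNA hairpin is cut into a duplex of 2 arms, 1 of which is loaded into an Argonaute protein. Bases 2 to 8 of the loaded arm, the seed, do most of the pairing to target messages, so family members with the same seed can share targets. In cells of the mesenchymal lineage the miR-30 family is known for restraining osteoblast differentiation through Runx2 and Smad1, and in other cells for targeting Snai1 and components of autophagy.

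The mature sequences are shown because the family's counts turn on how little its members differ. They are from RefSeq's tables for GRCm38.p6, where 7 of the 10 rows matched by name and miR-30b, miR-30b* and miR-30d did not. Each runs 5′ to 3′ with the seed in capitals, and miR-384-5p is added because it has the same seed.
miR-30a: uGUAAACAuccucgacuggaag
miR-30e: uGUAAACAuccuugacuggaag
miR-30c: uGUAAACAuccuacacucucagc
miR-384-5p: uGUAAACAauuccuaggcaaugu
miR-30a*: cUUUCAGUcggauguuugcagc
miR-30e*: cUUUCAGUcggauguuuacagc
miR-30c-1*: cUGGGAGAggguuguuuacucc
miR-30c-2*: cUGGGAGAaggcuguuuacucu

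The 3 matched guides and miR-384-5p were the only 4 of 1679 mature names in that table with the seed GUAAACA. A difference is written below as the base of the first sequence, its position from 1 at the 5′ end, and the base of the second. miR-30a and miR-30e differ by C13U alone. Their stars differ by G18A alone. The 2 miR-30c stars differ by G9A, U12C and C22U. miR-30a and miR-30c are less alike, with 5 differences over 22 bases.

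The located hairpins lie in 2 tight pairs on GRCm38.p6. On chromosome 1, plus strand, Mir30a spans 23272269 to 23272339 outside other annotated genes, and Mir30c-2 spans 23291701 to 23291784 in an exon of the long noncoding RNA gene Gm27028, with 19361 bases between them. On chromosome 4, minus strand, Mir30c-1 spans 120769534 to 120769622 and Mir30e spans 120772606 to 120772697. Both lie in an intron of Nfyc, a subunit gene of the transcription factor NF-Y, with 2983 bases between them. miR-30c therefore has 2 source hairpins that give the same guide, and its guide count cannot be divided between them.

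The libraries held 16680860 (WT replicate 1), 26542371 (WT replicate 2), 27362819 (TghuTNF replicate 1) and 22959408 (TghuTNF replicate 2) matches to miRNAs. A match is a read assigned to a miRNA with up to 2 mismatches, and the tables split each total into matches with 0, 1 and 2 mismatches. Perfect matches made up 69.6, 70.5, 70.5 and 66.0% of the libraries in that order. TghuTNF replicate 2 stood apart with 11.7% of its matches at 2 mismatches, against 8.21 to 8.73% in the other 3. Of the 6 fibroblast-associated miRNAs on a marker list (miR-199a-5p, miR-199a-3p, miR-214, miR-143, miR-145 and miR-21), all were listed, with a summed level of 281581 to 304758 CPM (counts scaled to library size) across the libraries. That sum was mostly miR-21 (160298 to 190785 CPM) and miR-143 (97646 to 113553 CPM). miR-199a-3p was at 4748 to 6188 CPM, miR-199a-5p at 1203 to 1465, miR-214 at 99.5 to 256 and miR-145 at 78.4 to 190. The sums of miRNAs typical of other cells were far lower: 66.7 to 127 CPM for 2 endothelial, 6.39 to 28.8 for 5 blood, 1782 to 3006 for 3 muscle, 30.7 to 70.7 for 6 epithelial and 63.7 to 78.1 for 3 neural miRNAs. Muscle miR-206 alone, at 1158 to 2003 CPM, lay above fibroblast miR-214 and miR-145. No marker was at 0 in every library, and neural miR-124 had 0, 0, 3 and 1 reads.

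The family took 4.50, 5.34, 4.41 and 4.44% of all matches in WT replicates 1 and 2 and TghuTNF replicates 1 and 2. The guides miR-30a, miR-30d and miR-30e held between 97.4 and 97.6% of the family's matches in each library, and 96.05 to 96.39% of its perfect matches. The totals of the 3 rows count largely the same reads, as set out below. The family's share of all matches thus holds many reads more than once. These 3 totals cannot be read as 3 levels. In WT replicate 1 they were 245898 for miR-30a, 243476 for miR-30d and 240964 for miR-30e, and the lowest of the 3 lay within 1.90 to 2.91% of the highest in every library.

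The perfect matches of the same 3 guides differed widely. In WT replicate 1 they were 79161 for miR-30a, 100761 for miR-30d and 55470 for miR-30e. The lowest of the 3 lay 35.1 to 46.0% below the highest across the libraries. Added together, the perfect matches of the 3 guides came to 95.7, 95.1, 96.1 and 92.1% of the miR-30a total alone.

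The mismatch classes largely matched up from guide to guide. The perfect matches of miR-30d and miR-30e together came to 98.3, 97.5, 98.2 and 96.1% of the 1-mismatch class of miR-30a. The perfect matches of miR-30a came to 96.5, 96.2, 97.1 and 93.7% of the 1-mismatch class of miR-30e, which differs from it at 1 base. Those of miR-30d came to 97.4, 97.2, 97.6 and 92.8% of the 2-mismatch class of miR-30e. For miR-30d, the perfect matches of miR-30a came to 95.64, 95.35, 96.36 and 93.57% of its 1-mismatch class. Those of miR-30e came to 92.55, 91.28, 92.58 and 83.66% of its 2-mismatch class, the loosest fit here. Each of these classes was thus larger than the perfect matches set beside it in every library, by the largest share in TghuTNF replicate 2. The sums are close to those of reads that fit 1 guide perfectly and are counted for the others as well, and the perfect matches are used below as the measure of each guide on its own. The headers do not state the rule for a read that fits several miRNAs.

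**Figure D1:**
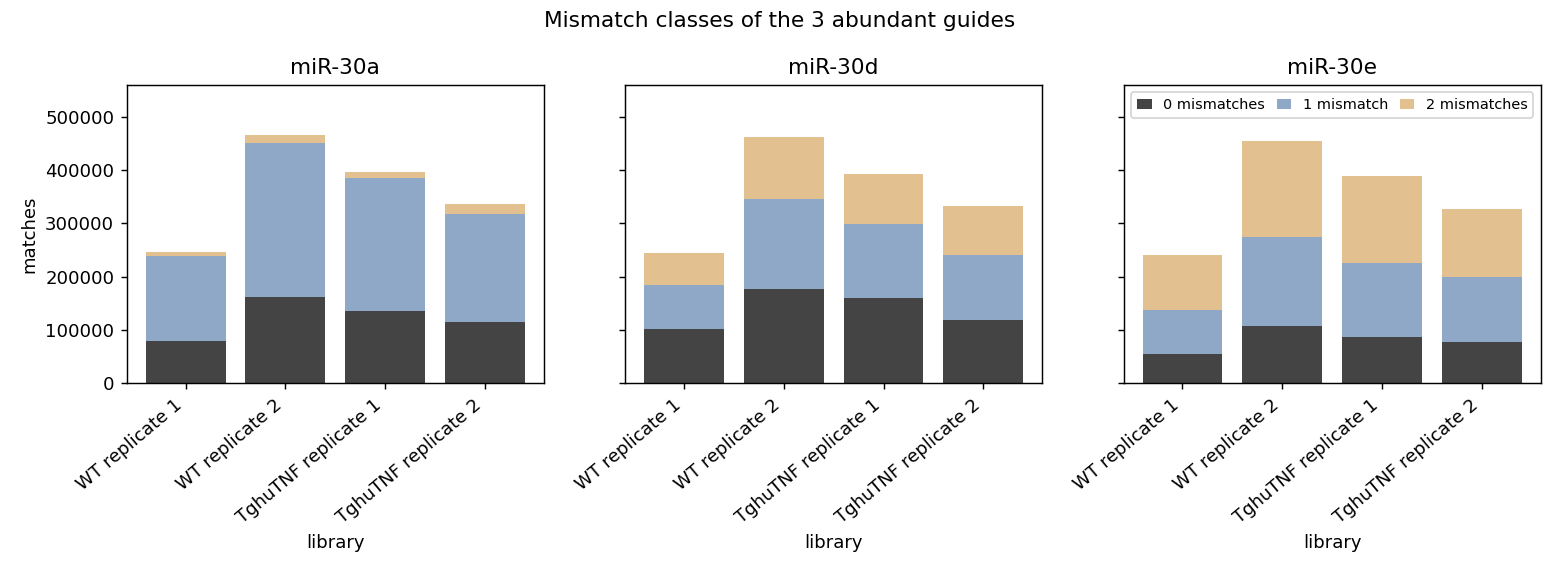
Number of matches (y axis) for miR-30a, miR-30d and miR-30e in each of the 4 libraries (x axis), with each bar split into matches with 0, 1 and 2 mismatches. Bar heights are nearly equal between the 3 guides in each library, whereas the dark part for perfect matches is tallest for miR-30d and shortest for miR-30e.

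The classes of the stars of miR-30a and miR-30e matched up less closely. The perfect matches of miR-30e* came to 106, 92.0, 81.2 and 83.3% of the 1-mismatch class of miR-30a*. Those of miR-30a* came to 125, 126, 114 and 100.1% of the 1-mismatch class of miR-30e*, so not all of them can have been counted in that class. miR-30c did not take in miR-30b in this way: its 1-mismatch class held 130, 265, 311 and 434 reads, below the 242, 482, 707 and 707 perfect matches of miR-30b.

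By perfect matches the guides ranked the same way in all 4 libraries. The family held 2.11, 2.46, 2.05 and 2.12% of all perfect matches. miR-30d led with 41.1, 38.2, 40.3 and 36.9% of the family's perfect matches in WT replicates 1 and 2 and TghuTNF replicates 1 and 2. miR-30a followed with 32.3, 35.1, 34.3 and 35.5%, and miR-30e with 22.6, 23.1, 21.8 and 23.9%. The 95% exact binomial interval of the miR-30d share in WT replicate 1 was 40.9 to 41.3%, which covers counting error only, since the reads carry no molecular identifiers. The 3 ranges of these shares did not overlap, and the order miR-30d, miR-30a, miR-30e held within every library. In CPM of perfect matches the ranges of miR-30d and miR-30a did overlap across libraries. It is an order of reads, not of molecules.

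miR-30c and miR-30b were rare by comparison. The perfect matches of miR-30c, scaled to CPM of perfect matches, were 107 and 155 in WT and 119 and 161 in TghuTNF. Those of miR-30b were 21.0 and 25.8 in WT and 36.3 and 46.7 in TghuTNF. On the same scale miR-30d stood between 7819 and 9418. The stars ran from 219 to 325 CPM for miR-30a* and miR-30e*, through 88.3 to 132 for miR-30c-2* and 14.2 to 18.0 for miR-30b*, to 0.73 to 2.00 for miR-30c-1*. The neighbours miR-30e* and miR-30a* overlapped in range, as did miR-30c and miR-30c-2*, and also miR-30d and miR-30a.

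**Figure D2:**
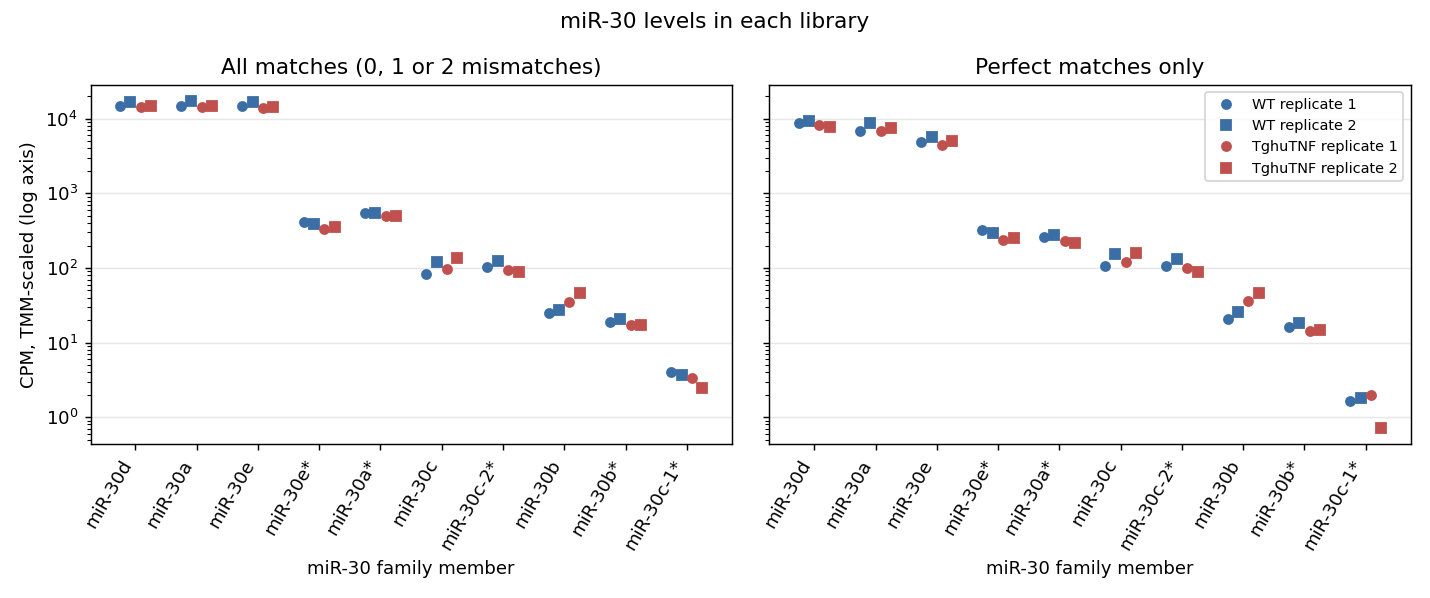
Level of each of the 10 rows in each library on a logarithmic y axis, from all matches and from perfect matches only, with WT and TghuTNF points in separate colours. The 3 abundant guides sit together in all matches. In perfect matches they run miR-30d, miR-30a, miR-30e from high to low within each library, but miR-30d and miR-30a overlap across libraries. miR-30b is the guide with the lowest level.

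No member of the family passed the test between TghuTNF and WT. With edgeR's quasi-likelihood test on all matches and Benjamini-Hochberg adjustment over 442 miRNAs, 0 of the 10 members were called at an adjusted p under 0.05, against 13.3% of all miRNAs tested. DESeq2 also called 0 of the 10, and 1 of the 10 (miR-30b) had an unadjusted edgeR p under 0.05. With perfect matches alone, 0 of the 10 were called, against 13.2% of 380 miRNAs, and again miR-30b alone had an unadjusted p under 0.05. The median log2 change (TghuTNF minus WT) of the 10 rows was -0.14 in all matches and -0.22 in perfect matches, beside 0.0056 and -0.0021 over all miRNAs tested. Because miR-30a, miR-30d and miR-30e count largely the same reads, the 10 rows of the first median are not 10 separate measurements.

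In all matches the 2 genotypes did not overlap for 9 of the 10 rows, and TghuTNF was the lower in 8 of them. miR-30a, miR-30d and miR-30e, which count largely the same reads, are among those 8, so the rows are not separate measurements. Among all miRNAs tested 60.6% did not overlap, and 29.9% did not overlap with TghuTNF lower. In perfect matches 6 of the 10 rows did not overlap, 5 of them with TghuTNF lower, against 60.3% and 32.9% of all miRNAs. The margins were narrow for the abundant guides. The total of miR-30a was 14966 and 17141 CPM in WT and 14336 and 14912 CPM in TghuTNF, so the nearest libraries of the 2 genotypes differed by less than the 2 WT libraries did.

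The abundant guides, which supply nearly all of the family's reads, changed little. Perfect matches of miR-30a were 6871 and 8656 CPM in WT and 6945 and 7525 CPM in TghuTNF. Both TghuTNF libraries lay inside the WT range, with a log2 change of -0.10 (edgeR adjusted p = 0.73). Perfect matches of miR-30d were 8746 and 9418 CPM in WT and 8172 and 7819 CPM in TghuTNF. Both TghuTNF libraries were the lower, with a log2 change of -0.18 (edgeR adjusted p = 0.45).

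Perfect matches of miR-30e were 4815 and 5694 CPM in WT and 4412 and 5071 CPM in TghuTNF. The genotypes overlapped, with a log2 change of -0.15 (edgeR adjusted p = 0.63). In all matches the log2 changes of miR-30a, miR-30d and miR-30e were -0.13, -0.13 and -0.14, each with an SE of 0.15. The 95% interval for miR-30a ran from -0.47 to 0.20, which leaves room for a fall of 0.47 on the log2 scale or a small rise.

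miR-30b, a guide whose seed-family targets include Runx2, was the only member with a log2 change above 0.5 in size. Its counts were 409 and 741 reads in WT and 952 and 1036 reads in TghuTNF, or 24.9 and 27.2 CPM against 34.5 and 46.0 CPM. Both TghuTNF libraries were above both WT libraries. The change was 1.54-fold, a log2 change of 0.63 with an SE of 0.25 and a 95% interval of 0.081 to 1.17, and it did not pass after adjustment (edgeR adjusted p = 0.12).

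Perfect matches of miR-30b gave 1.77-fold, a log2 change of 0.82 with an SE of 0.26 (edgeR adjusted p = 0.075). Leaving out TghuTNF replicate 1 made miR-30b a call in all matches, at a log2 change of 0.74 (edgeR adjusted p = 0.013). Leaving out TghuTNF replicate 2, the library with the most mismatches, lowered the log2 change to 0.37 (edgeR adjusted p = 0.36).

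miR-30c, the member best known for targeting Runx2, showed no common direction. It was at 84.2 and 119 CPM in WT and 97.4 and 138 CPM in TghuTNF in all matches. The libraries of the 2 genotypes interleaved, with a log2 change of 0.21, an SE of 0.25 and a 95% interval of -0.35 to 0.78 (edgeR adjusted p = 0.62). Perfect matches gave 0.093 (edgeR adjusted p = 0.84). Without WT replicate 1 the log2 change in all matches turned to -0.011, and without TghuTNF replicate 2 to -0.091.

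**Figure D3:**
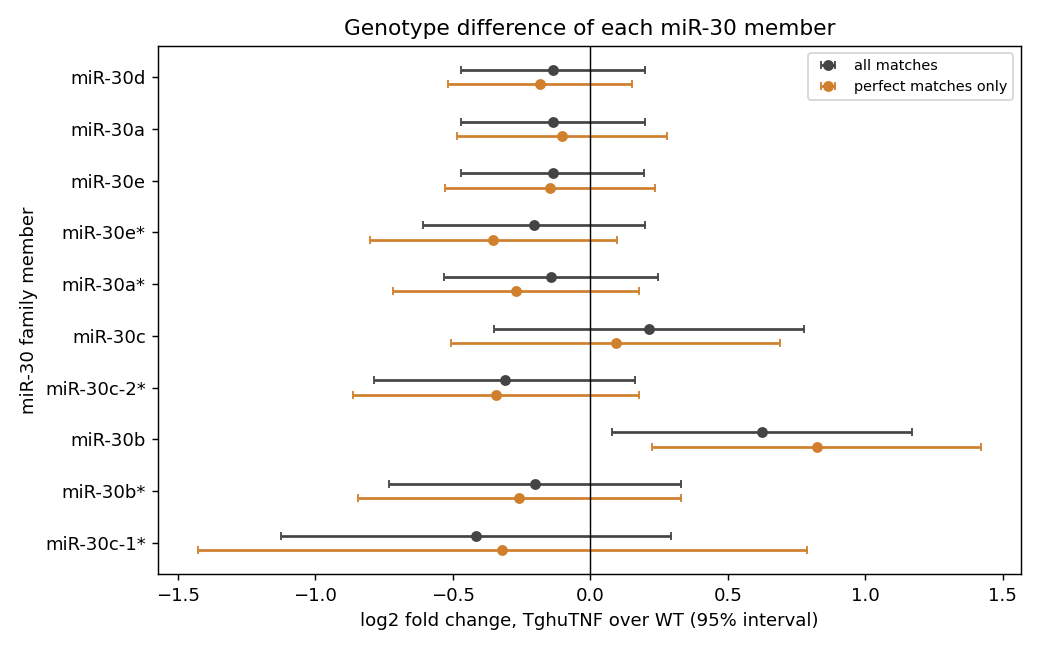
Log2 change (TghuTNF minus WT) of each of the 10 rows with its 95% interval, from all matches and from perfect matches only, with a line at 0. miR-30b lies above 0 in both counts (0.63 and 0.82), and its intervals, not adjusted for the number of miRNAs tested, are the only ones that leave out 0.

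The stars had small negative log2 changes. miR-30a* was at 541 and 545 CPM in WT and 490 and 494 CPM in TghuTNF in all matches. The pairs were tight and apart, yet the log2 change of -0.14 had an SE of 0.18 (edgeR adjusted p = 0.63). miR-30e* was at 409 and 387 CPM in WT and 334 and 357 CPM in TghuTNF, also apart, at -0.20 (edgeR adjusted p = 0.49). Perfect matches gave larger falls, -0.27 for miR-30a* (edgeR adjusted p = 0.41) and -0.35 for miR-30e* (edgeR adjusted p = 0.27).

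miR-30c-2* was at 103 and 125 CPM in WT and 94.8 and 88.7 CPM in TghuTNF. Both TghuTNF libraries were lower, at a log2 change of -0.31 (edgeR adjusted p = 0.36). miR-30b* was at 19.1 and 20.8 CPM in WT and 17.2 and 17.4 CPM in TghuTNF, at -0.20 (edgeR adjusted p = 0.62). This is the reverse of the sign of its guide. miR-30c-1* had 67 and 100 reads in WT and 92 and 55 reads in TghuTNF, too few for a precise estimate, with a log2 change of -0.42 and an SE of 0.32 (edgeR adjusted p = 0.41).

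The star to guide ratio compares the 2 arms of a hairpin within a library and needs no scaling between libraries. The guide far outnumbered the star for miR-30a and miR-30e. For miR-30a there were 3.62 and 3.18 star matches per 100 guide matches in WT and 3.42 and 3.31 in TghuTNF. For miR-30e there were 2.79 and 2.31 in WT and 2.38 and 2.47 in TghuTNF. The guides of these 2 hairpins carry the shared reads described above, and by perfect matches miR-30e stood at 6.76 and 5.21 in WT and 5.32 and 4.97 in TghuTNF.

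The 2 hairpins that feed miR-30c gave very different amounts of star. For miR-30c-2 there were 122 and 105 stars per 100 guide matches in WT and 97.4 and 64.3 in TghuTNF. The star thus outnumbered the pooled guide of the 2 hairpins in both WT libraries in all matches. By perfect matches it did not, with 98.4 and 85.3 in WT and 83.6 and 54.8 in TghuTNF. A ratio below 100 to the pooled guide does not show that a star was below the guide of its own hairpin. For miR-30c-1 there were 4.84 and 3.10 in WT and 3.42 and 1.77 in TghuTNF. Both ratios are over the same guide count, so they are not independent. When 1 library was left out, the log2 difference of miR-30c-1 ran from -1.13 (without TghuTNF replicate 1) to -0.18 (without TghuTNF replicate 2), and that of miR-30c-2 from -0.82 to -0.22 over the same omissions.

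The miR-30b hairpin was the only one of the 5 with an unadjusted p under 0.05 for its arm ratio. It gave 76.5 and 76.4 stars per 100 guide matches in WT and 49.9 and 37.9 in TghuTNF, a mean of 76.5 ± 0.10 against 43.9 ± 8.46 (SD, n = 2 each). The 2 WT libraries were almost equal in all matches but less so in perfect matches (SD 5.49), and both TghuTNF libraries were lower. The log2 difference was -0.81 with an SE of 0.26 and a 95% interval of -1.46 to -0.17, and it did not pass when adjusted over 112 hairpins (limma adjusted p = 0.70). With perfect matches the values were 77.7 and 69.9 in WT and 39.0 and 31.3 in TghuTNF, a log2 difference of -1.08 with an SE of 0.31 (limma adjusted p = 0.48 over 90 hairpins).

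None of the 5 miR-30 ratios was called by limma, and 0% of the 112 hairpins were. At an unadjusted p under 0.05 there were 6 of the 112 hairpins, 1 of them miR-30b. With perfect matches 0% of the 90 hairpins were called, and 8 had an unadjusted p under 0.05, miR-30b again among them. The genotypes did not overlap for 2 of the 5 ratios, miR-30b and miR-30c-2, both lower in TghuTNF. Over all hairpins 39.3% did not overlap and 18.8% did so with TghuTNF lower. The median log2 difference of the 5 was -0.52, beside 0.0089 over all hairpins.

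**Figure D4:**
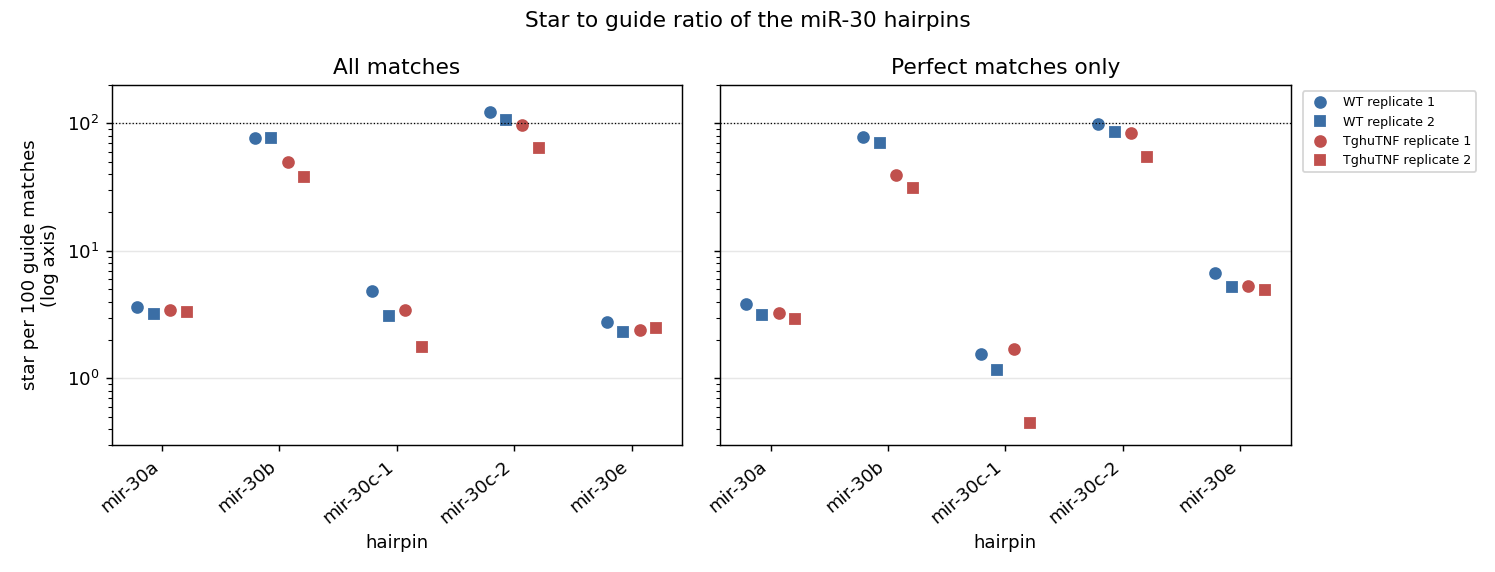
Star matches per 100 guide matches (logarithmic y axis, line at 100) for the 5 miR-30 hairpins with both arms, in each library, from all matches (left) and perfect matches (right). The miR-30b points of WT lie near 76 and those of TghuTNF at 49.9 and 37.9 in all matches, and the WT points of miR-30c-2 lie above 100 in all matches and below it in perfect matches.

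The share of perfect matches within a member was compared next. Near-identical reads counted in a row lower it, and so do mismatches of any other source. Over all miRNAs it was lowest in TghuTNF replicate 2, at 66.05%. In miR-30a it was 32.2, 34.6, 34.2 and 33.9% in WT replicates 1 and 2 and TghuTNF replicates 1 and 2. In miR-30c it was 89.1, 89.7, 85.9 and 78.5%, lowest in TghuTNF replicate 2, which also had the largest share of 2-mismatch matches (7.49% of its miR-30c reads, against 1.52 to 2.53% in the other libraries). In miR-30b it was 59.2, 65.1, 74.3 and 68.2%, higher in both TghuTNF libraries.

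Limma on the log2 odds of a perfect match called 0 of the 9 members with at least 100 matches in each library, and 0% of the 267 miRNAs tested. At an unadjusted p under 0.05 there were 10 of the 267, and 0 of the 9. The genotypes did not overlap for 5 of the 9, against 33.7% of all miRNAs, and their median was -0.13 beside -0.19 over all. The log2 odds of miR-30b differed by 0.60 with an SE of 0.28, and those of miR-30c by -0.84 with an SE of 0.32 (limma adjusted p = 0.84 for both).

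Outside the family, miR-384-5p has the same seed and comes from a hairpin on the X chromosome (105344282 to 105344369, minus strand). It had only 4, 2, 1 and 3 reads and was not tested. A list of 10 other miRNAs known to target Runx2, an osteoblast transcription factor, was set beside miR-30c. Of its 9 tested members 0 rose, 2 fell and 7 did not pass in edgeR, with a median log2 change of 0.050. miR-204 fell from 98 and 200 reads in WT to 29 and 13 in TghuTNF, a log2 change of -3.01 (edgeR adjusted p = 0.00059). miR-135a fell from 285 and 371 reads to 4 and 4, a log2 change of -6.55 (edgeR adjusted p = 2.63e-06). Only 1.66% of its matches over all libraries were perfect, 1 and 7 reads in WT and 3 and 0 in TghuTNF, so its fall is uncertain as a statement about miR-135a itself. The list was drawn up with earlier results of these data known and is no independent evidence of a direction.

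Markers of other cell types differed between the cultures as well. Of 14 tested, 1 rose, 2 fell and 11 did not pass in edgeR. miR-223, a myeloid miRNA, rose from 10 and 8 reads in WT to 90 and 54 in TghuTNF (edgeR adjusted p = 0.0026). Endothelial miR-126-3p fell by 0.79 on the log2 scale (edgeR adjusted p = 0.035), and epithelial miR-203 fell by 1.43 (edgeR adjusted p = 0.0025). Of the 6 fibroblast miRNAs 0 rose, 1 fell (miR-214, by 0.93, edgeR adjusted p = 0.037) and 5 did not pass. In sign, 4 of the 6 had negative log2 changes, and miR-145 (0.75) and miR-21 (0.12) had positive ones. The summed levels in WT and TghuTNF did not overlap for blood (6.39 and 16.1 CPM against 21.6 and 28.8), endothelial (108 and 127 against 66.7 and 68.8), muscle (2424 and 3006 against 1782 and 2053) or epithelial miRNAs (67.6 and 70.7 against 30.7 and 36.7). The epithelial sum was mostly miR-203 (59.0 and 62.4 against 25.2 and 19.8 CPM), and the other 3 tested epithelial miRNAs had positive log2 changes that did not pass (miR-200b 0.44, miR-200c 0.30 and miR-141 0.46). Their part in the miR-30b values was not tested. In such cultures fewer cells of a type and less of an RNA per cell cannot be told apart.

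The miRNAs whose pattern over the 4 libraries was most like the mean of the 5 guides were miR-107, miR-194, miR-21, miR-652 and miR-103. Likeness was the smallest Euclidean distance between log2 CPM values centred on their mean, among 128 miRNAs with a mean of at least 100 CPM, and the 5 distances ran from 0.069 to 0.13. Only 0.10 to 0.24% of the matches of miR-107 were perfect, against 84.5 to 90.9% for miR-103, so its row is uncertain as a measure of miR-107 itself. The mean guide profile was -0.16 and 0.077 in WT and -0.064 and 0.15 in TghuTNF, with replicate 2 the higher in both genotypes. It mixes 3 nearly identical rows with miR-30b and miR-30c. Its signs and its order of libraries were those of miR-30c, at -0.35 and 0.14 in WT and -0.14 and 0.36 in TghuTNF. They were not those of abundant miR-30a, at -0.032 and 0.16 in WT and -0.094 and -0.037 in TghuTNF. Likeness to this mean is therefore not likeness to the abundant guides.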

How the data were processed

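Small RNA (per the labels' protocols, gel-isolated fractions ligated to adaptors) was sequenced from 2 WT and 2 TghuTNF cultures. The authors' deposited counts give, for each miRNA, the total matches of reads with at most 2 mismatches and their split by mismatch class, made with mimap on reads of 37 bases against 707 miRNAs per the file headers. Depth was 16680860 to 27362819 matches. A floor of 3 counts equalled 0.110 to 0.180 CPM.

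Totals of all miRNAs were tested with edgeR 4.0.16 in R 4.3.3 (filterByExpr, TMM, quasi-likelihood, two-sided, Benjamini-Hochberg over 442 miRNAs, threshold 0.05). The same fit was run on perfect matches (380 miRNAs). Star to guide ratios (pseudocount 0.5, mean of at least 10 counts per arm) and log2 odds of a perfect match (at least 100 matches in each library) were tested with limma 3.58.1, two-sided. DESeq2 1.42.0, other filters and scalings, a replicate block and leaving out each library were alternatives. The fits were tested on simulated data. Group means rest on 2 libraries, the residual spread on 4.

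The members and lists were chosen with earlier results of these data known. Named were all miR-30 rows, miR-384-5p, called Runx2-list members and the 5 nearest patterns. The cell type markers named singly were chosen after their values were seen.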

Additional observations from a re-analysis of the deposited data

How the results depend on the processing

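Over all miRNAs tested, edgeR's 59 calls became 93 without a filter on low counts, 14 among miRNAs with a mean of at least 100 CPM, and 49 to 153 when 1 library was left out, with 153 without TghuTNF replicate 1. Members called stayed at 0 except that leaving out a library gave 0 to 1, the 1 being miR-30b without TghuTNF replicate 1. The filter at a mean of 100 CPM left out miR-30b, miR-30b* and miR-30c-1*, so the 0 under that setting does not cover them. The Runx2-list calls went from 2 to 1 with perfect matches. The cell type calls went from 3 to 6 with the replicate number as a block and to between 1 and 7 when 1 library was left out (1 without WT replicate 2, 7 without TghuTNF replicate 1, 6 without TghuTNF replicate 2). Hairpins called by arm ratio, and miRNAs called by odds of a perfect match, were 0 to 1 when 1 library was left out, and the odds gave 1 with the block.

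With 1 library left out, signs turned for the log2 change of miR-30c (-0.091 to 0.48), the arm ratios of miR-30a (-0.10 to 0.083) and miR-30e (-0.21 to 0.066), and the log2 odds of a perfect match of miR-30a (-0.038 to 0.12), miR-30d (-0.25 to 0.051), miR-30e (-0.086 to 0.030) and miR-30c-2* (-0.36 to 0.11). The last also turned to 0.080 with perfect set against 1-mismatch matches only. None of these values was called, and the causes were not tested. The deviations of WT and TghuTNF replicate 1 from their group means had r = -0.088 over 442 miRNAs. With so few libraries this cannot decide whether the replicate numbers pair the samples. With the replicate number as a block, edgeR's calls over all miRNAs went from 59 to 87. With the block, miR-30b stayed uncalled at 0.61 (edgeR adjusted p = 0.11). Depth limits miR-30c-1* most, at 55 to 100 reads.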

Other observations

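miR-30d was the only one of the 10 miR-30 rows with matches in none of the 3 mismatch classes, at 14 and 27 reads in WT and 15 and 10 reads in TghuTNF. miR-384-3p, the opposite arm of the miR-384 hairpin that shares the family's seed on its other arm, had 1 and 2 reads in WT and was not listed above 0 in TghuTNF.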
